A study of Mus musculus with 238 samples.

Results

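The 5 genes described here are Arntl, Clock, Npas2, Rora and Rorb, which make up the positive limb of the mammalian circadian clock. They were taken by symbol from the count table, which holds 21076 gene rows, and all 5 have a row. RNA was measured by bulk sequencing in C57BL/6JN mice, an inbred strain, all 19 months old. In the diet experiment 5 female mice were dietary restricted (labelled aDR, and DR for their livers) and 4 were fed ad libitum (AL). In the plasma experiment 3 male mice received plasma of young mice (YMP) and 4 received PBS, a buffered saline, by retro-orbital injection. Each mouse gave up to 15 brain regions, and the diet mice also gave liver. Sex was the same as experiment, so a difference between the experiments cannot be told apart from one between the sexes. The labels give no hour of tissue collection, so the position of the mice in their daily cycle is not known here.

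The clock of mammalian cells is a transcriptional loop that runs over about a day. The protein encoded by Arntl (BMAL1) pairs with CLOCK, or with its paralog NPAS2, and the pair binds E-box sequences and switches on the Per, Cry, Nr1d (REV-ERB), Ciart and Dbp genes. The PER and CRY proteins then repress the pair. RORA and RORB, nuclear receptors of the retinoic acid receptor-related orphan family, activate Arntl through ROR elements in its promoter, where the REV-ERB proteins repress it. As a result Arntl RNA peaks at about the opposite phase of the day to Per, Ciart and Dbp RNA, and a level taken at a single time holds both phase and amplitude. RORA is also needed for the development of Purkinje cells of the cerebellum, and RORB marks layer 4 of the sensory cortex.

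The table holds 238 libraries, of which 131 come from the brain and 9 from the liver of the diet mice and 98 from the brain of the plasma mice. The total per library lay between 0.606 M and 32.4 M counts (M for mega, median 8.44 M), and 6 of them did not reach 2 M. Most regions carried their own markers, but the dissections were not pure. The summed level of 5 choroid plexus markers had a median of 8048 CPM (counts scaled to a common library size) in the corpus callosum of control mice, against 8216 CPM in the choroid plexus itself. Levels below are CPM after 1 scaling of all libraries by trimmed mean of M values (TMM). In bulk tissue, fewer cells of a type and less RNA per cell cannot be told apart.

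Arntl lies on chr7:113207465-113314126 on the plus strand (GRCm38, GENCODE), Clock on chr5:76209868-76304792 on the minus strand and Npas2 on chr1:39193731-39363236 on the plus strand. Rora lies on chr9:68653786-69388246 on the plus strand and Rorb on chr19:18930605-19111196 on the minus strand. Exons of Arntl overlap those of Gm45355 and exons of Rora those of Gm15511. The libraries carry no strand information, so reads from the overlapping parts cannot be assigned to either partner.

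The Arntl promoter is shown because RORA and RORB act on it. Of the 5 genes, Arntl alone held the letters AGTAGGTNA of a ROR element, searched on both strands, in the windows of 300 bases around its RefSeq start sites (250 bases before the start to 50 after, GRCm38.p6). Both Arntl windows held it, and 194 of all 32851 windows did, or 0.591%. The letters searched were chosen with the Arntl sequence known. The distinct matches lay close together on the plus strand, within annotated exon and UTR sequence, and are printed 5′ to 3′ with those letters in capitals.
Arntl element 1, chr7:113207494-113207523: tggtcggaaAGTAGGTTAgtggtgcgacat
Arntl element 2, chr7:113207530-113207559: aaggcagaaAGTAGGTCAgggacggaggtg
Counted from the second RefSeq start site, the first element begins at -8 and the second at 28. The core AGGTCA, which is part of the second element, was present in 16.3% of all windows, and among the other members only a Clock window held it. The E-box CACGTG was in 7.15% of all windows and in none of those of the 5 genes. The D-box TTANGTAA, which DBP, TEF and HLF bind, was in 2.32% of windows and in 1 Rorb window. These matches describe letters in a window, and binding was not measured.

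Arntl fell in the brain of restricted mice. Each mouse was given 1 value per gene over its brain regions, the mouse term of a fit of log2 CPM on region and mouse. For Arntl these values were 4.83, 4.85, 4.92, 4.94 and 4.81 in the 5 aDR mice and 5.17, 5.24, 5.19 and 5.18 in the 4 AL mice. All restricted mice lay below all freely fed mice, and the gap between the groups was wider than the range within either. The change was -0.32 on the log2 scale (SE 0.034, 95% interval -0.40 to -0.25, limma adjusted p = 0.00212), which is 79.9% of the AL level. At an adjusted p under 0.05, the threshold used throughout for calling a gene changed, 273 of 15616 genes were called (1.75%), and Arntl ranked 8 by p-value. That count ranged from 52 to 311 when 1 mouse was left out, and Arntl was called each time. It was 52, 57, 78 and 85 without AL mice 66, 68, 69 and 63, and 74, 113 and 126 without aDR mice 62, 65 and 61.

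Clock, the usual partner of BMAL1, was also lower in every restricted mouse, but its difference was small. Its values were 5.599, 5.593, 5.588, 5.589 and 5.635 in aDR mice and 5.69, 5.69, 5.66 and 5.73 in AL mice. The change of -0.09 (SE 0.024, 95% interval -0.14 to -0.04) had a limma adjusted p of 0.0909 and was not called. Groups without overlap were seen for 8.3% of all genes, so the separation of the Clock values is common in these 9 mice.

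The other 3 members did not pass the test, and their groups overlapped. Npas2, the CLOCK paralog of the forebrain, ran from 4.04 to 4.21 in aDR mice and from 4.14 to 4.24 in AL mice, with a log2 change of -0.08 (95% interval -0.17 to 0.01, limma adjusted p = 0.365). Rora ran from 6.75 to 7.09 against 6.71 to 7.04, with a change of 0.06 (95% interval -0.12 to 0.23, limma adjusted p = 0.784). Rorb ran from 5.62 to 5.78 against 5.70 to 5.93, with a change of -0.08 (95% interval -0.20 to 0.04, limma adjusted p = 0.49). None of the 3 intervals reached the -0.32 measured for Arntl. The median change over all genes was -0.01.

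**Figure D1:**
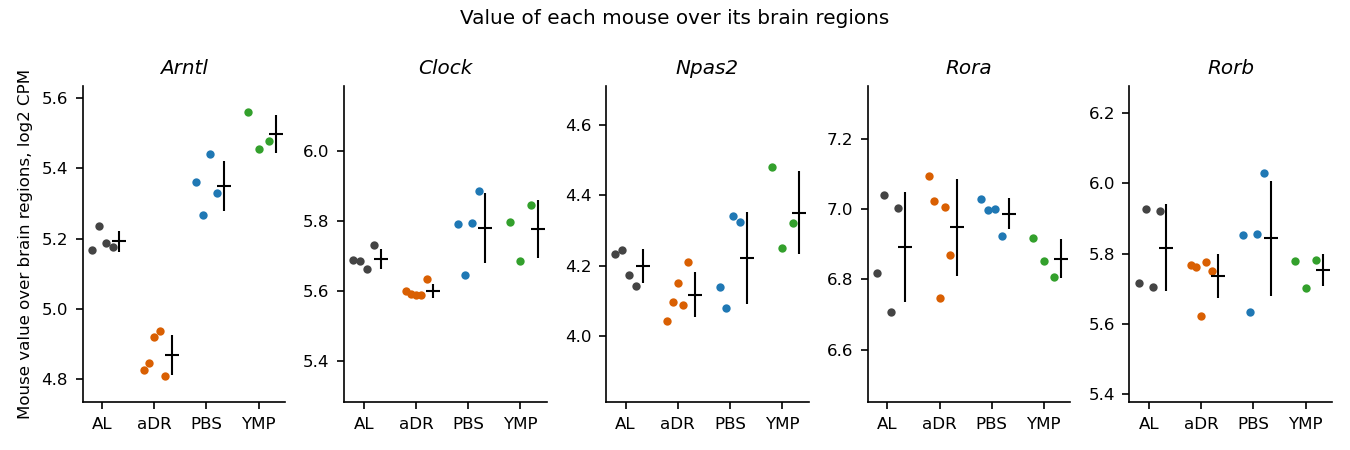
Value of each mouse over its brain regions (y axis, log2 CPM; each panel spans the same number of log2 units) for the 5 genes in AL, aDR, PBS and YMP mice (x axis). Points are mice, and the bar beside each group is the mean with its SD; the aDR and AL points of Arntl do not overlap, from 4.81 to 4.94 against 5.17 to 5.24.

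Within single tissues the fall of Arntl was called in motor cortex alone. There the 4 AL libraries held 55.1, 55.9, 54.9 and 54.4 CPM and the 5 aDR libraries 40.5, 39.8, 37.2, 39.8 and 34.4 CPM. The freely fed libraries were tightly grouped, and every restricted library was lower. The log2 change was -0.53 (SE 0.065, 95% interval -0.67 to -0.39, edgeR adjusted p = 0.00129) in a tissue where 33 of 13128 genes were called (0.251%).

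In the caudate putamen, the dorsal striatum, Arntl was 48.7, 49.0, 55.9 and 49.8 CPM in AL and 28.5, 27.3, 28.6, 33.5 and 41.7 CPM in aDR libraries. The groups did not overlap, and the aDR library of mouse 67 was the nearest to the AL range. The log2 change of -0.66 (SE 0.13) had an unadjusted p of 0.000404 and an edgeR adjusted p of 0.618, and DESeq2 called it with an adjusted p of 0.0123. Summed striatal markers ran from 3268 to 10057 CPM in aDR and from 3804 to 5108 CPM in AL libraries, with 3 of the 4 markers lower in aDR on average and none at 0. Their part in the result was not tested.

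The olfactory bulb held 30.04, 31.98, 34.5 and 32.9 CPM of Arntl in AL mice and 21.9, 26.4, 26.0, 27.2 and 22.9 CPM in aDR mice. Again the groups did not overlap. The log2 change of -0.40 (SE 0.077) had an edgeR adjusted p of 0.0643, which became 0.0423 without the shallow library of aDR mouse 65 and 0.0117 with DESeq2. In the visual cortex the AL libraries held 62.1, 67.2, 60.4 and 52.4 CPM and the aDR libraries 53.0, 48.3, 47.9, 49.7 and 45.2 CPM. These groups met at 1 library each, AL mouse 69 and aDR mouse 61. The log2 change was -0.30 (SE 0.077, edgeR adjusted p = 0.147), and -0.38 with an edgeR adjusted p of 0.0401 without mouse 69.

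Arntl was lower in restricted mice in 15 of 15 brain regions and in liver. Only 0.84% of the 12385 genes tested in every region were lower in all 15. The regions come from the same mice and are not independent counts. The log2 changes ran from -0.66 in the caudate putamen to -0.06 in the thalamus with a median of -0.33, and 10 of them had an unadjusted p under 0.05. In 7 brain regions and in liver every restricted library lay below every freely fed library, where 1.5% of gene and tissue pairs did so. Pons (-0.12), hypothalamus (-0.10) and thalamus had the smallest changes.

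In 6 further regions Arntl had an unadjusted p under 0.05, with edgeR adjusted p-values from 0.636 to 1. In medulla it was 14.3, 14.8, 15.0 and 14.2 CPM in AL and 10.8, 9.5, 12.2, 12.6 and 8.3 CPM in aDR libraries (log2 change -0.41, SE 0.12). In anterior hippocampus it was 42.3, 41.2, 43.4 and 41.4 CPM against 36.8, 34.7, 25.1, 38.5 and 24.3 CPM (-0.39, SE 0.14). In SVZ, the neurogenic zone beside the lateral ventricle, it was 33.2, 35.1, 32.6 and 30.9 CPM against 23.0, 29.5, 29.6, 25.5 and 23.9 CPM (-0.33, SE 0.093). The freely fed libraries of these 3 regions lay close together, the restricted ones were more spread, and the groups did not overlap.

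The corpus callosum also showed no overlap, at 29.4, 39.8 and 49.5 CPM in AL and 24.6, 27.1, 27.4 and 27.8 CPM in aDR libraries (log2 change -0.58, SE 0.16), but here the freely fed libraries were the more spread. In entorhinal cortex Arntl was 30.5, 34.3 and 51.8 CPM against 24.6, 31.1, 32.4, 30.1 and 30.4 CPM (-0.43, SE 0.16). Without AL mouse 69, the highest there, the Arntl change in entorhinal cortex was -0.15. In posterior hippocampus it was 40.3, 41.1, 39.3 and 33.7 CPM against 34.4, 32.6, 30.95, 33.8 and 34.0 CPM (-0.20, SE 0.078). The groups overlapped in both of these regions, in posterior hippocampus through AL mouse 69.

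**Figure D2:**
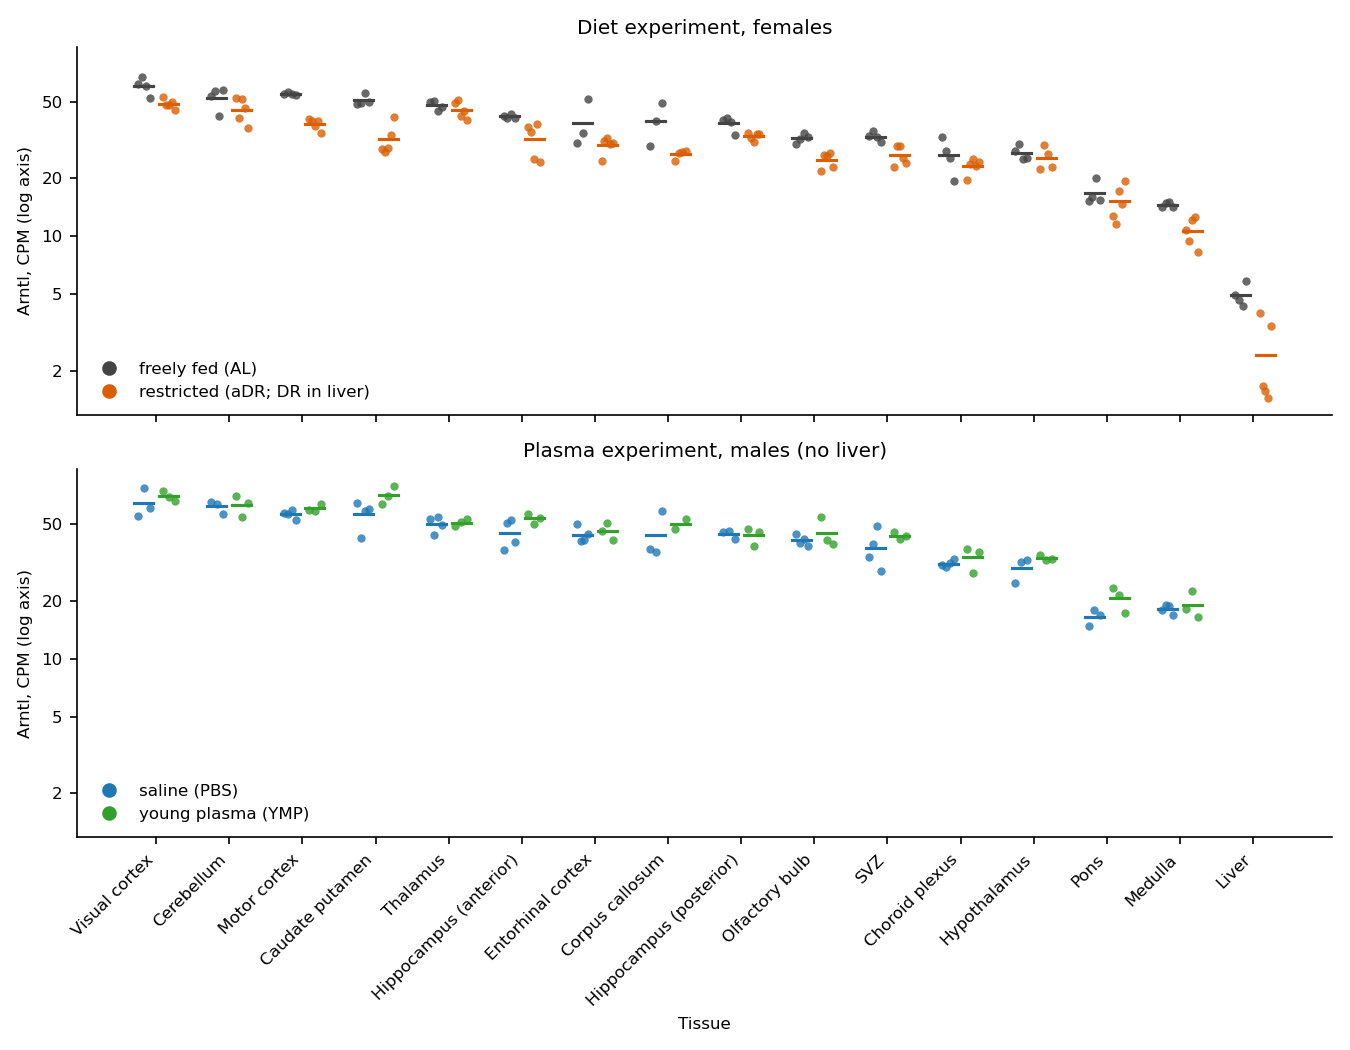
Arntl in every library (y axis, CPM, log axis) by tissue (x axis), for the diet experiment above and the plasma experiment below. Points are libraries and short lines are group means; in 8 of the 16 tissues all restricted points lie below all AL points, with motor cortex at 34.4 to 40.5 against 54.4 to 55.9 CPM, and liver, at 1.4 to 5.9 CPM, is far below the brain.

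Whether the change of Arntl differed between regions was tested with region by treatment terms. The edgeR F test gave an unadjusted p of 0.0262 and an adjusted p of 1, and 3 of 15616 genes were called (0.0192%). An unadjusted p under 0.05 was seen for 326 of these 15616 genes, with Arntl among them. A difference between regions was therefore not shown for Arntl after adjustment, and the unadjusted p-values of the other members were 0.5 or higher.

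In liver, where Arntl drives the daily rhythm of many metabolic genes, its level was low. The AL livers held 5.0, 4.7, 4.4 and 5.9 CPM, from 15 to 37 counts, and the DR livers 4.0, 1.7, 1.6, 1.4 and 3.4 CPM, from 3 to 16 counts. Every restricted liver was below every freely fed liver, but the counts are small. The log2 change of -1.01 (SE 0.32, 95% interval -1.71 to -0.31) had an edgeR adjusted p of 0.287. The liver change minus the brain change of the same mice was -0.65 (SE 0.29, limma adjusted p = 0.61), so a larger fall in liver than in brain was not shown, with 8 of 11350 genes called for that difference (0.0705%). The liver differences of Clock, -0.39 (SE 0.26), and Rora, 0.20 (SE 0.18), had edgeR adjusted p-values of 0.742 and 0.839. Npas2 had 0 to 5 counts and Rorb 0 to 3 counts in each liver library, too few for a test.

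Over the 16 diet tissues, 78 tests of a member could be made and 16 had an unadjusted p under 0.05, of which 11 were Arntl. Among all genes 6.39% of such tests did, and 0.0616% passed the adjusted threshold. The remaining 5 were spread over 4 genes and 3 regions. In visual cortex Npas2 was 33.2, 35.1, 35.7 and 31.2 CPM in AL and 25.9, 27.4, 26.1, 30.5 and 28.9 CPM in aDR libraries, without overlap (log2 change -0.27, SE 0.082, edgeR adjusted p = 0.27). In that region 1.29% of genes were lower in aDR without overlap. Clock was 48.4, 56.1, 60.4 and 62.5 CPM in the same AL libraries and 46.5, 59.0, 45.7, 41.8 and 48.3 CPM in the aDR libraries, with aDR mouse 62 inside the freely fed range (log2 difference -0.27, SE 0.096, edgeR adjusted p = 0.359). In cerebellum Clock was 73.5, 75.6, 62.3 and 74.7 CPM in AL and 69.8, 60.5, 63.9, 64.9 and 65.5 CPM in aDR libraries (log2 difference -0.14, SE 0.063, edgeR adjusted p = 0.351), with AL mouse 68 among the restricted values. Rorb was 33.8, 34.9, 39.9 and 33.5 CPM against 29.4, 34.4, 29.3, 31.1 and 24.8 CPM there, with aDR mouse 62 inside the freely fed range (log2 difference -0.26, SE 0.091, edgeR adjusted p = 0.261). None of these passed the adjusted threshold.

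Rora had an unadjusted p under 0.05 in the hypothalamus, the seat of the central clock. There it was 81.2, 68.3, 66.4 and 75.3 CPM in AL and 96.0, 121.3, 72.7 and 81.7 CPM in aDR libraries. The aDR library of mouse 64 was the highest and that of mouse 65 lay within the AL range. The log2 change of 0.37 (SE 0.15) had an edgeR adjusted p of 0.986, and SVZ had a slightly higher Rora change (0.38). Summed thalamic markers (Tcf7l2, Lhx9, Prkcd, Rgs16) were 129, 168, 85.2 and 98.4 CPM in these aDR libraries and 146, 73.6, 86.9 and 93.6 CPM in the AL libraries, with 2 of 4 markers higher in aDR and none at 0. Their part in the result was not tested.

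**Figure D3:**
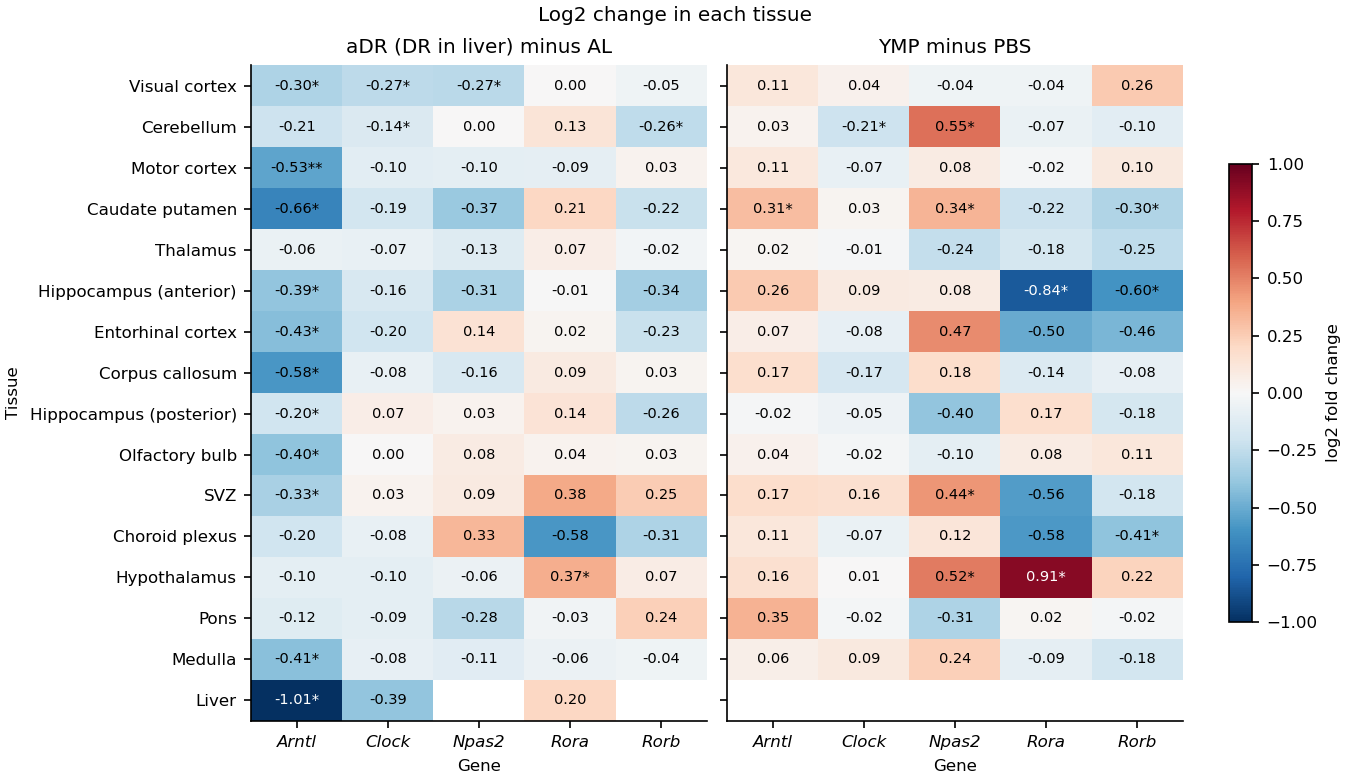
Log2 change (colour and printed value) of each gene (x axis) in each tissue (y axis), aDR or DR minus AL on the left and YMP minus PBS on the right. Values of -0.30 and lower fill most of the Arntl column on the left; 2 asterisks mark the 1 value with an edgeR adjusted p under 0.05 (motor cortex), 1 asterisk an unadjusted p under 0.05, empty cells were not tested, and the colour scale ends at -1 and 1.

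The fall of Arntl can be set beside the rest of the clock. The lists were chosen with earlier results of these data known, so their directions are no independent evidence. Of the 5 members 1 was called lower and 0 higher, with a median log2 change of -0.08. Among all 15616 genes 0.98% were called higher and 0.768% lower. Of 10 repressors of the loop 6 were called higher and 0 lower (median 0.19). These were Per1 (0.33), Per2 (0.42), Per3 (0.22), Cry1 (0.37), Cry2 (0.17) and Ciart (0.76), a repressor of CLOCK and BMAL1 activity and the gene with the lowest p-value of all. Nr1d1 (0.03), the REV-ERB gene whose product represses Arntl, and Nr1d2 (0.10) were not called.

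Of 5 output genes 3 were called higher and 1 lower, beside the same 0.98% and 0.768% of all genes. Dbp (0.37), Tef (0.17) and Usp2 (0.30) rose, and Nfil3 (-0.21), which encodes a repressor that competes with DBP for D-boxes, fell. None of 5 kinase and ubiquitin ligase genes was called, and neither was Arntl2, the paralog of Arntl. The calls of Per1, Cry1, Ciart, Dbp and Usp2 held when any 1 mouse was left out. Without AL mouse 66 the limma adjusted p-values of Per2, Per3, Cry2, Tef and Nfil3 were 0.0578, 0.146, 0.0726, 0.0658 and 0.0658. Leaving out AL mouse 68 also ended the calls of Per3 (0.117), Cry2 (0.0688), Tef (0.0571) and Nfil3 (0.0558), and without AL mouse 69 those of Per3 (0.0894), Cry2 (0.062) and Nfil3 (0.0513) were lost. The call of Per3 was also lost without aDR mouse 61 (0.103), 62 (0.117) or 64 (0.0568) or AL mouse 63 (0.134), and that of Cry2 without aDR mouse 61 (0.0505) or 62 (0.0629).

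**Figure D4:**
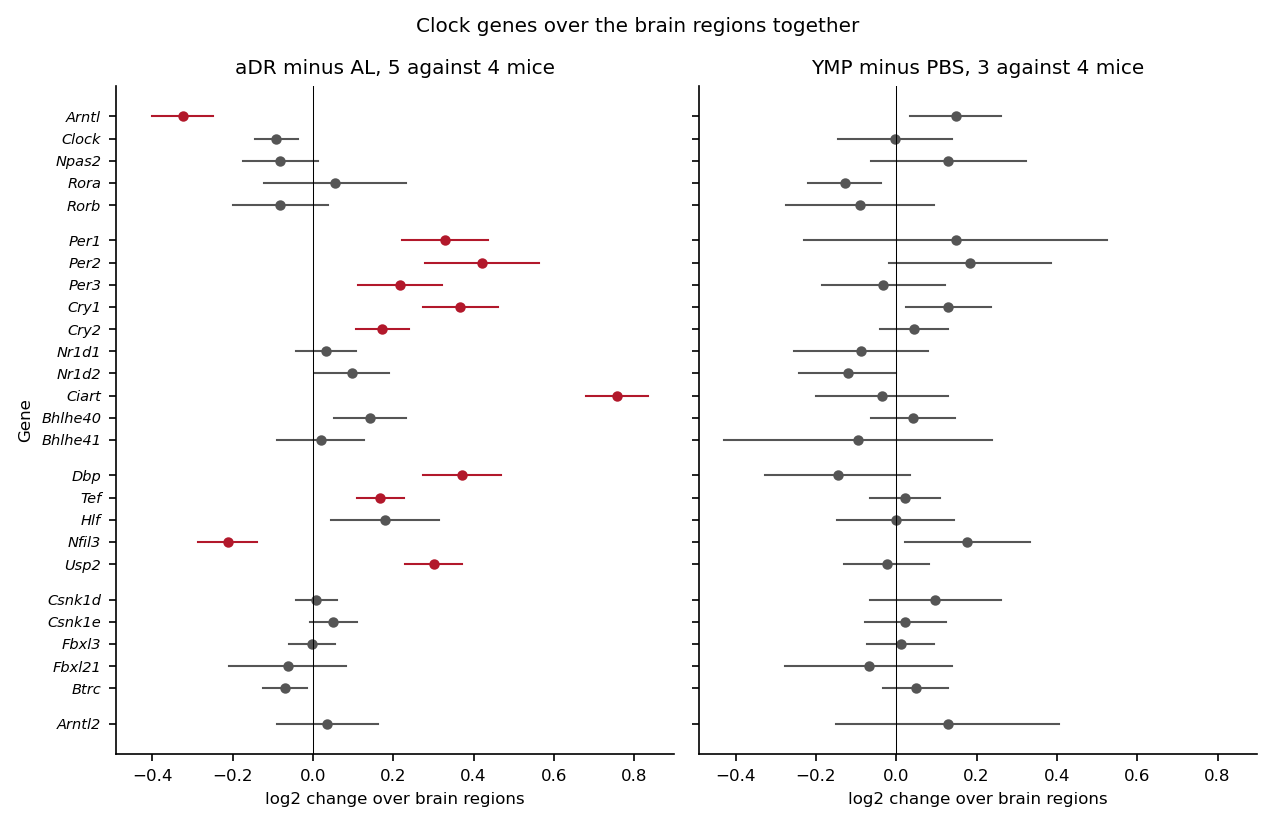
Log2 change over the brain regions together (x axis) with its 95% interval for the clock genes (y axis), aDR minus AL on the left and YMP minus PBS on the right. Points in red had a limma adjusted p under 0.05; on the left Arntl (-0.32) and Nfil3 (-0.21) are red below 0 and 9 genes are red above 0, and on the right no point is red.

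In the plasma experiment none of the 5 members was called over the brain. Arntl was higher in YMP mice, at 5.56, 5.46 and 5.48, than in PBS mice, at 5.36, 5.27, 5.44 and 5.33. The groups did not overlap, but 10.1% of all genes shared that feature. The log2 change of 0.15 (SE 0.050, 95% interval 0.03 to 0.26) had an unadjusted p of 0.0169 and a limma adjusted p of 0.509. No gene was called in this comparison (0% of 15768), with 1317 at an unadjusted p under 0.05 and a lowest adjusted p of 0.121. A fit with voom and the mouse as a replicate block called 486 genes and no member.

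Rora was 6.917, 6.852 and 6.808 in YMP mice and 7.027, 6.997, 7.001 and 6.924 in PBS mice. The groups came close to each other without overlap. The log2 change was -0.13 (SE 0.040, 95% interval -0.22 to -0.04), with an unadjusted p of 0.0114 and a limma adjusted p of 0.472. Clock (-0.00), Npas2 (0.13) and Rorb (-0.09) overlapped between the groups, with limma adjusted p-values of 0.992, 0.704 and 0.793. Their intervals ran from -0.14 to 0.14, from -0.06 to 0.32 and from -0.27 to 0.10.

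The diet change of Arntl differed from its plasma change. Restricted minus freely fed mice gave -0.32 and YMP minus PBS mice 0.15, and the difference was -0.46 (SE 0.057, 95% interval -0.58 to -0.34, limma adjusted p = 0.0034), where 34 of 15562 genes were called (0.218%). No other member was called for this difference. It was -0.21 for Npas2 (unadjusted p 0.0375, limma adjusted p = 0.364), 0.19 for Rora (limma adjusted p = 0.51), -0.09 for Clock (limma adjusted p = 0.601) and 0.01 for Rorb (limma adjusted p = 0.971). Treatment, sex and experiment cannot be told apart in it.

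Within the 15 regions of the plasma experiment, 75 tests of a member were made, 11 had an unadjusted p under 0.05 and 0 were called. Among all genes 6.11% of such tests had an unadjusted p under 0.05, and 0.0127% were called. Arntl was higher in YMP mice in 14 of 15 regions, from -0.02 in posterior hippocampus to 0.35 in pons. The regions come from the same mice and are not independent counts. Among genes tested in every region 1.57% had the same sign in all 15, and the share with 14 was not counted. In caudate putamen Arntl was 63.7, 70.3 and 78.8 CPM in YMP and 64.7, 42.2, 58.5 and 60.1 CPM in PBS libraries, with PBS mouse 76 the lowest (log2 change 0.31, SE 0.14, edgeR adjusted p = 0.488). The library of mouse 76 also had the least summed striatal markers of its group, at 2859 CPM against 4259 to 4463 CPM. Among the YMP libraries the one with the lowest sum, 4590 CPM, held the most Arntl. The part of these markers in the Arntl result was not tested.

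Npas2 had 4 of these 11 results, all of them higher in YMP mice. In caudate putamen it was 87.6, 78.3 and 88.0 CPM against 72.9, 49.7, 65.1 and 75.7 CPM (log2 change 0.34, SE 0.13, edgeR adjusted p = 0.474), without overlap and with PBS mouse 76 again the lowest. In that region 6.38% of genes were higher in YMP without overlap. Summed striatal markers moved the same way, at 5270, 5279 and 4590 CPM in YMP and 4259, 2859, 4421 and 4463 CPM in PBS libraries, with 4 of 4 markers higher in YMP. In SVZ Npas2 was 57.6, 70.5 and 46.6 CPM against 49.7, 33.4, 41.1 and 42.1 CPM (log2 change 0.44, SE 0.19, edgeR adjusted p = 0.358), with overlap at YMP mouse 81. All 4 striatal markers were higher in YMP there too, at 1135 to 2930 CPM against 900 to 2928 CPM. All 5 choroid plexus markers were lower in YMP SVZ, at 25.9 to 47.0 CPM against 2620 to 18638 CPM, so the SVZ libraries of the groups differed in tissue content. The part of these markers in the Npas2 results was not tested.

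The other 2 Npas2 results were in regions where its level is low. In hypothalamus it was 9.8, 10.2 and 7.7 CPM against 5.4, 7.1 and 6.8 CPM (log2 change 0.52, SE 0.20, edgeR adjusted p = 0.998), without overlap, as were 5.12% of genes in that direction. Summed thalamic markers were also higher in these YMP libraries, at 209 to 562 CPM against 89.6 to 195 CPM, with 4 of 4 markers higher, and Npas2 is more abundant in thalamus than in hypothalamus. Their part in the Npas2 result was not tested. In cerebellum it was 4.9, 3.5 and 5.9 CPM against 3.8, 2.8 and 3.2 CPM from 20 to 57 counts (log2 change 0.55, SE 0.24, edgeR adjusted p = 0.477), with overlap at YMP mouse 77. In pons, another region of low Npas2, the difference had the other sign, at 4.8, 4.6 and 3.2 CPM in YMP and 5.9, 5.2 and 5.2 CPM in PBS libraries (log2 change -0.31, SE 0.26, edgeR adjusted p = 1). Clock in cerebellum was 79.9, 74.2 and 70.7 CPM in YMP and 81.7, 85.4 and 93.6 CPM in PBS libraries, lower without overlap (log2 change -0.21, SE 0.078, edgeR adjusted p = 0.45), as were 7.73% of genes in that region.

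Rora had differences of opposite sign in a pair of regions that border the thalamus, and neither was called. In anterior hippocampus Rora was 58.3, 50.9 and 83.0 CPM in YMP and 124.8, 47.4, 126.1 and 155.9 CPM in PBS libraries, where PBS mouse 76 was the lowest of all (log2 change -0.84, SE 0.36, edgeR adjusted p = 0.683). Rorb was 38.3, 31.2 and 50.7 CPM against 70.5, 36.3, 55.0 and 76.8 CPM (log2 change -0.60, SE 0.26, edgeR adjusted p = 0.683). Summed thalamic markers were 55.4, 142 and 160 CPM in YMP and 344, 120, 261 and 355 CPM in PBS libraries. All 4 markers were lower in YMP, none was at 0, and the PBS library with little Rora had the lowest sum of its group. Among the YMP libraries the order differed. The one with a sum of 55.4 CPM held 58.3 CPM of Rora, and the one with 142 CPM held 50.9 CPM.

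In hypothalamus Rora was 155.6, 205.5 and 97.3 CPM in YMP and 65.9, 70.3 and 107.8 CPM in PBS libraries (log2 change 0.91, SE 0.29, edgeR adjusted p = 0.998). The groups met at YMP mouse 81 and PBS mouse 84. Summed thalamic markers were 362, 562 and 209 CPM in the same YMP libraries and 95.8, 89.6 and 195 CPM in the PBS libraries, so the order of the libraries by these markers was close to their order by Rora. All 4 markers were higher in YMP. The part of the markers in these Rora and Rorb results was not tested.

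Rorb was also lower in YMP choroid plexus, at 44.2, 40.0 and 40.0 CPM against 61.8, 61.6, 51.1 and 44.6 CPM (log2 change -0.41, SE 0.14, edgeR adjusted p = 1), without overlap, as were 3% of genes there. Summed thalamic markers in these libraries were 58.8, 297 and 89.6 CPM in YMP and 242, 432, 221 and 67.2 CPM in PBS. On average 4 of 4 markers were lower in YMP, and none was at 0. The lowest PBS sum was in the PBS library with the least Rorb. The lowest YMP sum, however, was in the YMP library with the most Rorb. The YMP choroid plexus library of mouse 73 had 150 CPM of choroid plexus markers, where the other libraries of that region in the plasma experiment had 6663 to 15669 CPM. The part of these markers in the Rorb result was not tested. In caudate putamen Rorb was 42.4, 32.5 and 41.8 CPM in YMP and 44.5, 52.2, 46.7 and 46.4 CPM in PBS libraries, lower without overlap (log2 change -0.30, SE 0.12, edgeR adjusted p = 0.481), as were 5.9% of genes there. PBS mouse 76, with the least summed striatal markers of its group, had the most Rorb. The YMP libraries with 5270 and 5279 CPM of these markers held 42.4 and 32.5 CPM of Rorb. The part of striatal markers in this Rorb result was not tested. The edgeR F test of region by treatment terms called no member in the plasma experiment, where 0.932% of genes were called, and the lowest unadjusted p was 0.0306 for Rora (adjusted p 0.44), followed by 0.0645 for Npas2 (adjusted p 0.582).

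The levels of the 5 genes over the brain were compared in the 112 brain libraries of control mice, AL and PBS. All 5 differed between regions by an edgeR F test with the mouse as a block, as 99.6% of genes did. Of the 105 pairs of regions, Npas2 differed in 91, Arntl in 87, Clock in 69, Rorb in 63 and Rora in 55, where 60.2% of all gene and pair tests were called. Per kilobase of exon, to compare genes, the median over regions was 7.53 CPM for Rora, 5.54 for Arntl, 4.83 for Npas2, 4.56 for Rorb and 3.77 for Clock.

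Arntl was highest in visual cortex, at 62.1 ± 8.3 CPM (SD, n = 7 mice), and lowest in medulla, at 16.4 ± 2.0 CPM (SD, n = 8), a ratio of 3.80. In between, the means in CPM were 56.5 in cerebellum, 55.7 in motor cortex, 53.6 in caudate putamen, 49.1 in thalamus, 43.5 in anterior hippocampus and 41.8 in entorhinal cortex. They went on with 41.7 in corpus callosum, 41.1 in posterior hippocampus, 36.8 in olfactory bulb, 35.3 in SVZ, 28.8 in choroid plexus, 28.3 in hypothalamus and 16.6 in pons. Of the 14 neighbouring pairs in this order, 3 differed by edgeR: posterior hippocampus above olfactory bulb (adjusted p 0.0138), SVZ above choroid plexus (0.0019) and hypothalamus above pons (8.24e-10). No other neighbouring pair passed the test. Pons and medulla thus stood apart at the bottom, and the order within the regions above SVZ was not resolved between most neighbours.

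Clock was the most even of the 5. It was highest in olfactory bulb (80.5 ± 7.3 CPM, SD, n = 8) and cerebellum (78.1 ± 9.96 CPM, SD, n = 7) and lowest in medulla (37.0 ± 3.4 CPM, SD, n = 8), a ratio of 2.18. The other regions had means from 39.2 CPM in pons to 60.1 CPM in anterior hippocampus. In CPM, anterior hippocampus was followed by visual cortex (56.1), caudate putamen (54.2), motor cortex (54.2), corpus callosum (53.0), thalamus (51.7) and hypothalamus (49.4). Posterior hippocampus (48.7), SVZ (47.0), entorhinal cortex (46.9) and choroid plexus (43.6) came after these. Of 14 neighbouring pairs 1 differed, cerebellum above anterior hippocampus (edgeR adjusted p = 1.6e-05).

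Npas2 had the widest range. It was highest in caudate putamen (66.8 ± 11.6 CPM, SD, n = 8), followed by corpus callosum (49.6 ± 11.3 CPM, SD, n = 6) and SVZ (39.6 ± 6.0 CPM, SD, n = 8). Summed striatal markers had a median of 4340 CPM in caudate putamen, 2339 CPM in corpus callosum and 994 CPM in SVZ and were at most 404 CPM in any library of the other regions, so the regions next to the striatum carried striatal RNA. The cortical means were 36.7 CPM (motor), 35.6 CPM (visual) and 34.5 CPM (entorhinal). The others were 28.1 CPM in posterior hippocampus, 23.1 in thalamus, 19.3 in choroid plexus, 15.0 in anterior hippocampus and 13.3 in olfactory bulb. Hypothalamus (6.24 CPM), medulla (5.10 CPM), pons (4.87 CPM) and cerebellum (3.21 ± 0.73 CPM, SD, n = 7) were far lower, and the caudate putamen mean was 20.8 times that of cerebellum. The neighbours that differed were caudate putamen above corpus callosum (edgeR adjusted p = 0.0167), choroid plexus above anterior hippocampus (0.0152), olfactory bulb above hypothalamus (2.77e-09) and pons above cerebellum (0.00495).

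The partners of BMAL1 therefore stood in unequal ratios over the brain. The log2 ratio of Npas2 to Clock CPM was highest in caudate putamen, at 0.29 ± 0.12 (SD, n = 8), and near 0 in corpus callosum (-0.12 ± 0.25, SD, n = 6). It was -2.95 ± 0.28 (SD, n = 7) in hypothalamus and -4.54 ± 0.40 (SD, n = 7) in cerebellum. Clock has the longer exons (13.727 against 4.791 kilobases), so per length the ratio favours Npas2 more than these values do, by the same amount in each region.

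**Figure D5:**
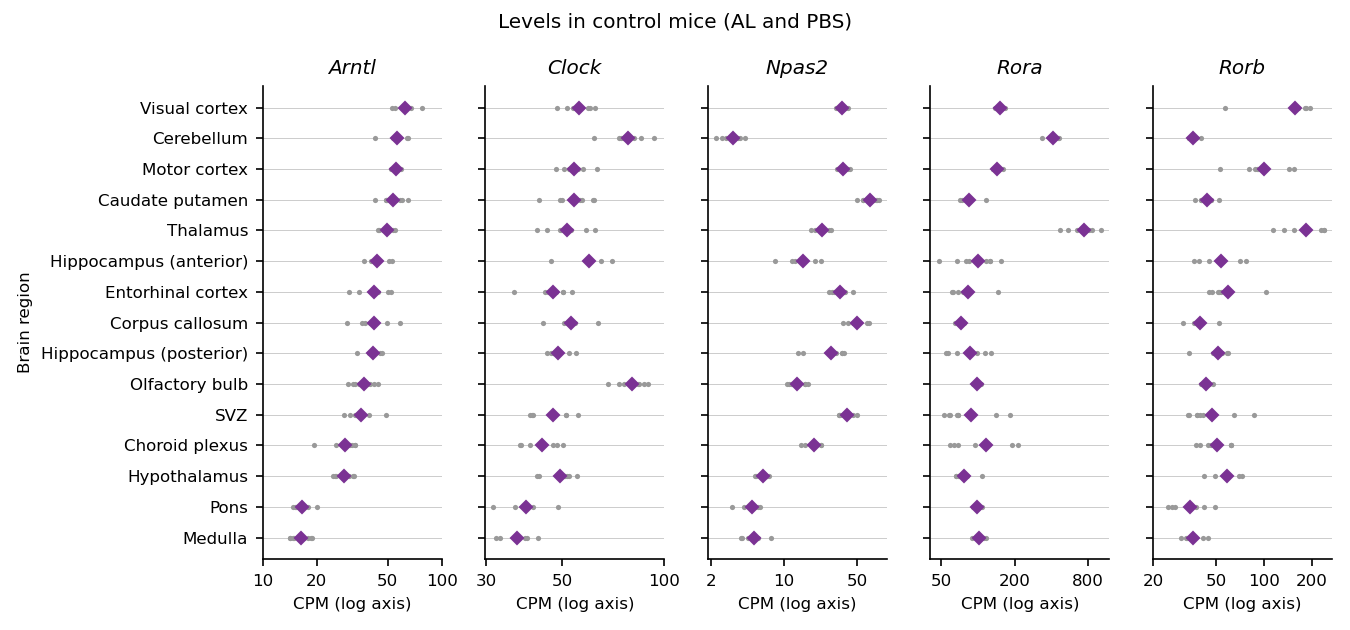
Level (x axis, CPM, log axis with its own range in each panel) of the 5 genes in the 15 brain regions (y axis, ordered by Arntl) of control mice. Grey points are libraries and diamonds are means; Npas2 spans 3.21 to 66.8 CPM and Rora stands out in thalamus (742 CPM) and cerebellum (417 CPM).

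Rora was highest in thalamus, with 470 CPM in the lowest library, a median of 772 CPM and a mean of 742 ± 179 CPM (SD, n = 8). Cerebellum, the region of Purkinje cells, followed with 417 ± 42 CPM (SD, n = 7). Both steps differed by edgeR, thalamus above cerebellum (adjusted p 2.95e-05) and cerebellum above visual cortex (2.81e-10), and none of the other 12 neighbouring pairs did. The remaining means ran from 151 CPM in visual cortex and 143 CPM in motor cortex to 71.9 CPM in corpus callosum. Between them in order, in CPM, came choroid plexus (115), medulla (102), anterior hippocampus (100.1), pons (98.5), olfactory bulb (97.7), SVZ (87.2), posterior hippocampus (86.1), caudate putamen (84.0), entorhinal cortex (82.5) and hypothalamus (76.5). The SD was large in choroid plexus (57.9 CPM), SVZ (47.9 CPM) and anterior hippocampus (36.2 CPM). Summed thalamic markers there ran from 67.2 to 503, from 56.9 to 561 and from 62.7 to 355 CPM. Entorhinal cortex and posterior hippocampus had an SD of 29.6 and 28.2 CPM, with low marker sums of 43.5 to 67.9 and 57.0 to 68.8 CPM. The part of these markers in the spread of Rora was not tested.

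Rorb was highest in thalamus (185 ± 49 CPM, SD, n = 8) and visual cortex (158 ± 46 CPM, SD, n = 7), whose difference did not pass the test (edgeR adjusted p = 0.224). Motor cortex (100.1 ± 33.2 CPM, SD, n = 8) lay below visual cortex (edgeR adjusted p = 0.00463) and above entorhinal cortex (59.1 CPM, edgeR adjusted p = 0.000151). In visual cortex 6 of the 7 libraries held 159.7 CPM or more of Rorb, and the library of PBS mouse 76 held 56.7 CPM. Its summed layer 4 markers (Rspo1, Scnn1a, Whrn) were 55.9 CPM, where the other control libraries of that region had 105 to 127 CPM. This sum was not confined to cortex. Its control median was 110 CPM in visual cortex, 88.4 CPM in SVZ, 71.3 CPM in hypothalamus and 49.6 CPM in motor cortex. The part of these markers in the Rorb value was not tested. In the other regions Rorb ran from 58.2 CPM in hypothalamus to 34.3 CPM in pons, and none of their neighbouring pairs differed. In that order, in CPM, they were anterior hippocampus (53.3), posterior hippocampus (51.2), choroid plexus (50.5), SVZ (46.7), caudate putamen (43.6), olfactory bulb (43.2), corpus callosum (39.7), cerebellum (35.8) and medulla (35.7). The log2 ratio of Rorb to Rora CPM was highest in visual cortex (-0.02 ± 0.64, SD, n = 7) and lowest in cerebellum (-3.53 ± 0.22, SD, n = 7).

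Among the members, the region means of Arntl and Clock had the highest Pearson correlation over the 15 regions, at r = 0.66, and those of Npas2 and Rora the lowest, at -0.23. Clock and Npas2, which share a partner, had r = 0.01. The 3 genes most like each member over these 15 means of log2 CPM, among 12192 genes, were found by Pearson correlation. For Arntl they were Nr1d1 (r = 0.95), the REV-ERB gene, Kcnmb4os2 (0.93) and Kcnmb4 (0.92). For Clock they were Pnisr (0.98), Med13 (0.97) and Rbm33 (0.97), and for Npas2 Fam49a (0.95), Ubxn6 (0.95) and Prdm4 (0.94). For Rora they were Reep2 (0.91), Creg1 (0.88) and Ptpn4 (0.87), and for Rorb Tbk1 (0.94), Extl3 (0.89) and Tyw5 (0.87). Regions share mice, so these are descriptions.

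In freely fed mice Arntl, Npas2 and Rorb were scarce in liver. Rora was more abundant there than in the mean of the brain regions. It did not exceed every region, as the thalamus and cerebellum of these mice had means of 775 and 403 CPM of Rora. Arntl was lower in liver than in the mean of the brain regions by a log2 difference of -2.78 (SE 0.14, 95% interval -3.07 to -2.49, edgeR adjusted p = 1.1e-23), where 86.4% of genes were called. Rora was higher in liver than in that mean, at 191, 218, 192 and 167 CPM, with a log2 difference of 0.74 (SE 0.17, edgeR adjusted p = 9.68e-05). Clock, at 35.4, 61.5, 41.9 and 33.1 CPM, had a difference of -0.21 (SE 0.094, edgeR adjusted p = 0.039). That call was lost in 4 of 6 alternatives, with an adjusted p of 0.243 under DESeq2's size factors, 0.56 without mouse 69, 0.266 without mouse 63 and 0.0673 without mouse 68. Npas2 had 3, 4, 2 and 5 counts in the 4 AL livers and Rorb 0, 1, 1 and 1 counts, so both were close to undetected and no fold is given.

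Within groups, mice with more Arntl did not have measurably more or less of the other clock genes. Mouse values of 16 mice, centred on their treatment group, were correlated for Arntl with Clock, Npas2, Rora, Rorb, Nr1d1, Ciart, Dbp and Per2 (8 relations, two-sided permutation within groups). The largest were 0.47 with Npas2 (Spearman 0.37), -0.45 with Per2 (-0.32) and -0.44 with Ciart (-0.49). Their permutation p-values were 0.15, 0.131 and 0.146 for Pearson's r, each 0.4 after adjustment, and 0.245, 0.287 and 0.0927 for Spearman's rho, adjusted to 0.766, 0.766 and 0.742. Without the 2 mice farthest from the median of Arntl, r was 0.43 with Npas2, -0.37 with Per2 and -0.23 with Ciart. In the 9 diet mice alone r was 0.01, -0.21 and -0.56 in that order, and in the 7 plasma mice 0.73, -0.67 and -0.38, and no relation passed in either experiment after adjustment. Over all 16 mice the other 5 relations had r from -0.16 (Dbp) to 0.17 (Rorb). For Clock r was 0.15 over all mice, -0.52 in the diet mice (Spearman -0.68) and 0.37 in the plasma mice. The permutation p-values of Clock in the diet mice were 0.127 for r and 0.0488 for rho, adjusted to 0.605 and 0.39.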

How the data were processed

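The authors deposited 1 table of read counts per gene for 238 libraries, made from RNA by Smart-Seq2 and Nextera XT without strand, per the labels' protocols. Trim Galore 0.3.7, STAR 2.5.3a, DESeq2 and GRCm38 are named per the submitters' processing notes; the counting program and annotation are not given in the sources used here. The members and gene lists were chosen with earlier results of these data known.

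Each tissue was tested with edgeR 4.0.16 (quasi-likelihood, TMM, R 4.3.3) after filterByExpr (lowest count 10, lowest total 15). Effects over brain regions were tested with limma 3.58.1 on 1 value per mouse from log2 CPM with a prior count of 2. P-values were adjusted by Benjamini-Hochberg over all genes tested. In the treatment tests within a tissue and over brain regions they rest on the spread between the mice of a group. The tests of levels between regions, of liver against brain levels and of region by treatment terms had the mouse as a block. Those rest on the spread between libraries once mouse differences are removed. Counts of reads without molecular identifiers set the precision of low genes. All 5 members were described, with every library's value where the unadjusted p in a tissue was under 0.05, and other clock genes were named where called. The scripts were tested on simulated data with 200 changed genes. Mouse numbers pair libraries within a treatment, never across treatments: residuals of libraries correlated at 0.040 within and -0.005 between diet mice, and at 0.072 and -0.012 in the plasma experiment. Alternatives were DESeq2 1.42.0, other size factors, filters and prior counts, voom fits, and leaving out mice, regions or shallow libraries. Results for some genes and marker lists are not reported here.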

Additional observations from a re-analysis of the deposited data

Results flagged for a closer look

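In 52 groups of 4 or 5 mice, 4 had a member value set apart from the rest by Dixon's criterion, where chance gives about 1 in 20 groups, or 2.6. The Clock value over brain regions of aDR mouse 67 was 5.635 against 5.588 to 5.599 in the other restricted mice, and the Rorb value of aDR mouse 64 was 5.62 against 5.75 to 5.78. In the caudate putamen of AL mouse 68, Arntl was at 55.9 CPM, where the other freely fed mice had 48.7 to 49.8 CPM. In the cerebellum of the same mouse Clock was at 62.3 CPM against 73.5 to 75.6 CPM. The change of Arntl over the brain also differed between the experiments, by -0.46 for diet minus plasma, by a test of that difference.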

How the results depend on the processing

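Over 92 results and 1098 alternatives, 1022 were the same as the main fit. For changes and correlations this meant the same direction and side of the threshold. For F tests it meant the same side, and for counts of calls a similar size. Arntl over the brain regions kept its call in all diet alternatives (limma adjusted p up to 0.0128 with a mouse left out), and so did its diet minus plasma difference (up to 0.0227). The 273 diet genes called became 165 with no filter, 144 without a variance trend (chosen after seeing the data), 1474 in voom with the mouse as a replicate block, 2760 with no replicate block, and 52 to 311 with 1 mouse left out. The plasma count of 0 became 1 without shallow libraries, 0 to 2 with 1 mouse left out (2 without PBS mouse 80), 486 with the replicate block and 2629 without it. Libraries of a mouse are not independent, so the fits with no block overstate n. The fits with the replicate block also work on libraries, where the main fit has 1 value per mouse. In the diet mice their lowest adjusted p was 6.7e-32 by voom with the block and 3.39e-06 by limma in the main fit. Clock in the diet mice was -0.10 in both voom fits (adjusted p 0.0104 with the replicate block, 0.000767 without), and Arntl in the plasma mice 0.14 with no block (0.00175). No paired analysis was possible because treated and control mice share no number.

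Changes near 0 reversed. Rora in the diet mice ran from -0.0053 to 0.11 with a mouse left out (lowest without AL mouse 68). Clock in the plasma mice was 0.00098 without choroid plexus, 0.0020 without corpus callosum, 0.0082 with the replicate block, 7.5e-05 without it, and -0.044 to 0.043 with a mouse left out (0.0017, 0.043 and 0.030 without mice 72, 77 and 84). Rorb for diet minus plasma ran from -0.046 to 0.088 with a mouse left out, and the liver minus brain change of Rora from -0.015 (without mouse 64) to 0.24. Some correlations with Arntl also took the other sign, not all of them near 0. In the diet mice alone they were -0.52 for Clock, -0.14 for Rora, -0.059 for Rorb, 0.28 for Nr1d1 and 0.083 for Dbp. Without the 2 farthest mice they were -0.073 for Rora and 0.17 for Dbp. Member calls within diet tissues, 1 in all, became 3 with DESeq2, 2 without shallow libraries and 1 to 2 with a mouse left out. The Clock difference between liver and brain fell short at -0.12 with DESeq2's size factors and ran from -0.39 to -0.08 with a mouse left out. The causes were not tested. Arntl in liver rests on 3 to 37 counts per library, and Npas2 in the plasma cerebellum on 20 to 57.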
